A study of Homo sapiens with 12 samples.

Results

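The clade B serpins are a family of protease inhibitors, and 10 of their genes were followed here by name: SERPINB1, SERPINB2, SERPINB3, SERPINB4, SERPINB5, SERPINB6, SERPINB7, SERPINB8, SERPINB9 and SERPINB13. They are 10 of the 58288 genes listed in an RNA-Seq experiment on FaDu cells, an established human head and neck squamous cell carcinoma (HNSCC) line. The WT cells had been transduced with Cas9 and a non-targeting guide RNA (gRNA), and the STING KO cells with Cas9 and a gRNA against TMEM173, the gene of STING, the adaptor protein of cytosolic DNA sensing. Both were grown without radiation (unirradiated) or given 4 daily fractions of 2 Gy (irradiated), and 3 libraries were made per group (12 in all). The KO group therefore stands for 1 gRNA in 1 cell line, and the labels do not say whether the cells were cloned, whether the 3 libraries came from separate cultures, or how long after the last fraction RNA was collected. P-values then measure only the spread between these libraries, which may be technical. The table's column names use NT2 for the non-targeting cells and A63 for cells read here as STING KO, a name that the sample labels do not use.

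Clade B serpins lack the classical secretion signal of most serpins and act mainly inside cells. An inhibitory serpin presents an exposed reactive centre loop as bait. A serine or cysteine protease that cuts the loop is trapped in a covalent complex and carried across the inhibitor, and the loop's sequence sets which protease is caught. In stratified squamous epithelium, the tissue from which HNSCC arises, several members are abundant, and SERPINB3 and SERPINB4 were first described as squamous cell carcinoma antigens.

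Values are transcripts per 1000000 (TPM), which are scaled for gene length and library size and sum to 1000000 in each library, so that levels can be compared between genes but the reads behind a value are unknown. TMEM173 was listed at 21.1 to 26.1 TPM in the 6 WT libraries and at 5.18 to 7.41 TPM in the 6 KO libraries. In unirradiated KO cells 26.3% of the WT mean was left. All 8 epithelial markers examined (KRT5, KRT14, KRT6A, KRT17, TP63, CDH1, EPCAM and DSG3) were measured in FaDu cells, with summed levels of 6425 to 9049 TPM per library. Much of this sum was KRT17, with group means from 3104 to 4281 TPM. Of the 8, only DSG3 and EPCAM passed the test with irradiation. On the log2(TPM + 1) scale DSG3 fell by 0.38 in both WT and KO cells, and EPCAM rose by 0.15 in WT and 0.18 in KO cells. Summed markers of leukocytes, fibroblasts and endothelium reached at most 34.4, 9.35 and 23.9 TPM. Of these other-cell markers, 4 of 6, 5 of 6 and 2 of 4 stayed under 1 TPM in every library. The endothelial sum was 11.5 to 15.9 TPM in unirradiated and 18.3 to 23.9 TPM in irradiated libraries, with CDH5 rising by 0.61 on the log2(TPM + 1) scale in both WT and KO cells, and the monocyte marker CD14 was higher by 0.40 in unirradiated KO cells. The part of any of these markers in the serpin results was not tested.

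SERPINB13, SERPINB3 and SERPINB4, which lie near each other on chromosome 18, had lower mean levels after irradiation and higher mean levels in KO than in WT cells. SERPINB13 and SERPINB3 passed the test in all 4 comparisons between groups, whereas SERPINB4 did so only for irradiation of WT cells. SERPINB9 was slightly lower in irradiated KO cells than in irradiated WT cells. For SERPINB1, SERPINB5, SERPINB6, SERPINB7 and SERPINB8 no comparison passed the test, and SERPINB2 was too low to be tested. In RNA from whole cultures, fewer cells expressing a gene and less RNA per cell cannot be told apart.

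In unirradiated WT cells the most abundant member was SERPINB1 at 129 ± 4.54 TPM (SD, n = 3), followed by SERPINB6 at 98.4 ± 2.42 TPM. SERPINB5, SERPINB13 and SERPINB9 came next, at 43.9 ± 2.75, 41.3 ± 2.29 and 40.2 ± 0.71 TPM, and each overlapped its neighbour in this order. Below them lay SERPINB8 at 5.01 ± 1.48 TPM, SERPINB3 at 2.61 ± 0.23 TPM, SERPINB4 at 1.40 ± 0.35 TPM and SERPINB7 at 1.00 ± 0.49 TPM, of which only the last pair overlapped. SERPINB2 was lowest at 0.081 ± 0.14 TPM. SERPINB1 and SERPINB6 were at ranks 1 and 2 in all 4 groups. Among the other abundant members, SERPINB13 was at rank 3 in unirradiated KO cells, above SERPINB5, and at rank 5 in both irradiated groups, below SERPINB9. Among the low members, SERPINB3 went from rank 7 in unirradiated WT to rank 6 in unirradiated KO cells, where it overlapped SERPINB8, and was at rank 8 in both irradiated groups. There SERPINB7 was at rank 7, above SERPINB3, against rank 9 in both unirradiated groups. The 5 abundant members made up 96.0% to 97.8% of the summed TPM of all 10 genes in each library. That sum was 363 ± 4.37 TPM in unirradiated WT, 375 ± 3.74 in unirradiated KO, 346 ± 21.3 in irradiated WT and 358 ± 7.45 in irradiated KO cells. Of the clade B genes outside the group of 10, SERPINB10 and SERPINB11 were listed at 0 in all 12 libraries, and SERPINB12 never exceeded 0.077 TPM.

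**Figure D1:**
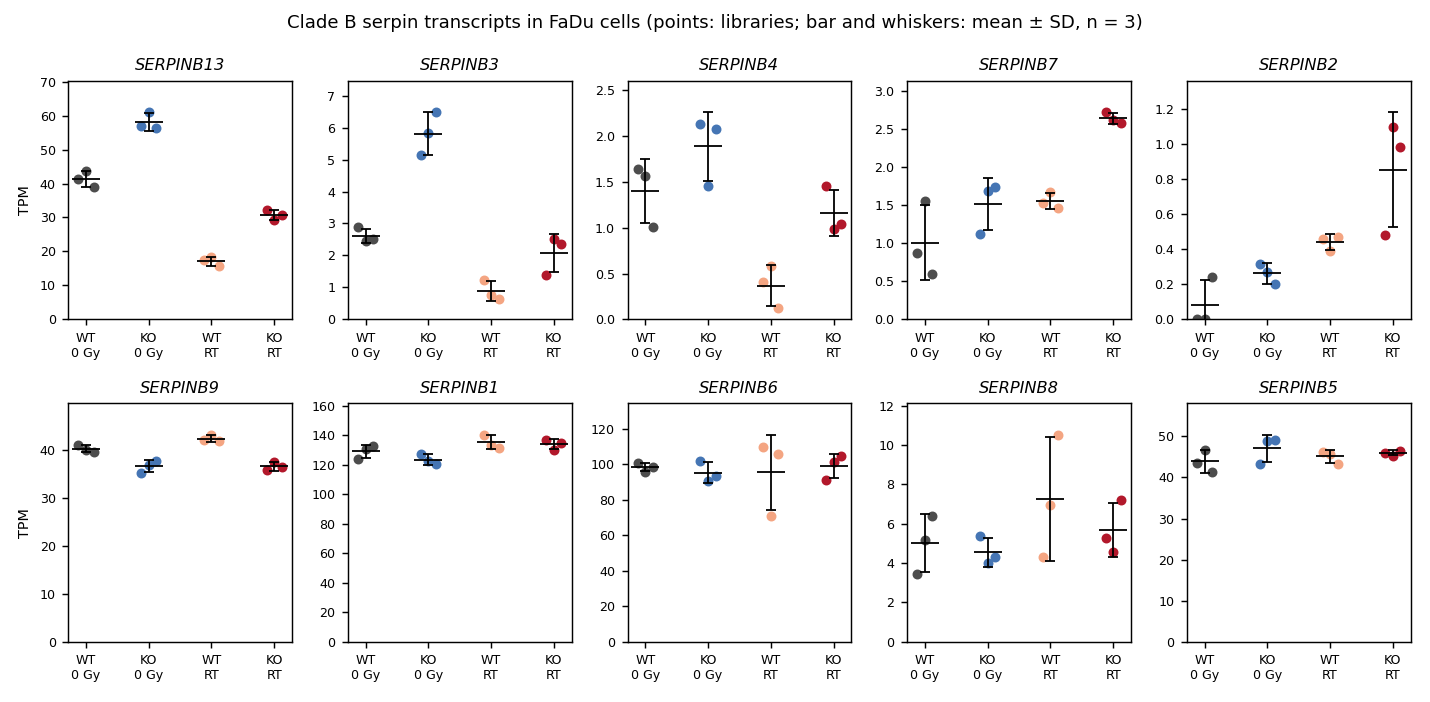
TPM of the 10 clade B serpin genes (vertical axes from 0, a separate scale for each gene) in unirradiated (0 Gy) and irradiated (RT) WT and KO cells; points are libraries and bars with whiskers are means ± SD, n = 3. SERPINB13 and SERPINB3 were highest in unirradiated KO cells and lowest in irradiated WT cells, while SERPINB1 and SERPINB5 stayed between 121 and 141 TPM and between 41.3 and 49.2 TPM.

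SERPINB13 (also called headpin or hurpin) inhibits the lysosomal cysteine proteases cathepsin L and cathepsin K. Its 3 libraries were at 41.3, 43.6 and 39.0 TPM in unirradiated WT cells and at 56.9, 61.0 and 56.3 TPM in unirradiated KO cells. After irradiation they were at 17.3, 18.3 and 15.6 TPM in WT cells and at 32.1, 29.2 and 30.6 TPM in KO cells. No library of any group overlapped another group, with unirradiated KO cells highest and irradiated WT cells lowest. The fold between mean levels was 1.40 for KO over WT cells without radiation and 1.79 with it. Irradiated cells were lower 2.42-fold in WT and 1.9-fold in KO cells. Differences in log2(TPM + 1) were tested with limma, with one spread estimated from all 12 libraries and p-values adjusted by the Benjamini-Hochberg method over the 15973 genes tested. SERPINB13 rose by 0.48 ± 0.070 (SE; limma adjusted p = 0.0053) in unirradiated KO over WT cells and by 0.81 ± 0.070 (adjusted p = 9.7e-05) in irradiated KO over WT cells. With irradiation, SERPINB13 fell by 1.23 ± 0.070 in the WT (adjusted p = 1.3e-05) and by 0.90 ± 0.070 in the KO background (adjusted p = 0.00017). These calls were kept under each of the 20 alternative settings tried, including each library left out in turn.

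The fall after irradiation was 0.33 log2 units smaller in KO than in WT cells for SERPINB13, with a 95% interval of 0.11 to 0.54. Taken alone this difference had an unadjusted limma p of 0.0076, and over all genes tested the adjusted p was 0.67. Among the 15973 genes, 0.0188% passed the test of this difference, and none of the 9 members tested did. At unadjusted p under 0.05, SERPINB13 was the only member (1 of 9), beside 6.61% of all genes tested.

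SERPINB3 (squamous cell carcinoma antigen 1) inhibits cathepsins L, S and K, and SERPINB4 (squamous cell carcinoma antigen 2) inhibits the serine proteases cathepsin G and chymase. The genes arose by duplication. Their coding sequences, taken from GENCODE 29 transcripts, were 95.2% identical, with 56 of 1170 aligned bases differing. Of all stretches of 100 bases, the length of a read, 3.4% in the SERPINB3 transcript and 3.45% in the SERPINB4 transcript also occurred in the other gene. Reads from these stretches could be assigned to either gene, and so their sum is given beside the separate values. SERPINB3 also lies inside SERPINB11 on the opposite strand, and whether reads were counted by strand is not given in the sources used here.

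The stretch that codes for the reactive centre loop is shown because it is where the pair differ most in known target. It runs from the hinge that precedes the loop to the conserved residues that follow it, lies in exon 8 in both genes, and is given on the minus strand of GRCh38 at chr18:63655723-63655812 for SERPINB3 and chr18:63637785-63637874 for SERPINB4. Capitals mark the bases that differ, 10 of 90, a lower identity (88.9%) than over the whole coding sequence.
SERPINB3: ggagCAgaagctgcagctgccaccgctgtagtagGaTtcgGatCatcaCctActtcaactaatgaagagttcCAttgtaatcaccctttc
SERPINB4: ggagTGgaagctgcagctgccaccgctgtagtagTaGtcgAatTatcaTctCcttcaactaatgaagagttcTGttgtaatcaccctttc

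SERPINB3 was listed at 2.88, 2.45 and 2.51 TPM in unirradiated WT cells and at 5.14, 5.83 and 6.48 TPM in unirradiated KO cells. The irradiated libraries were at 1.23, 0.752 and 0.652 TPM in WT and at 1.39, 2.51 and 2.35 TPM in KO cells. Unirradiated KO cells stood above every other group, irradiated WT cells below every other group, and unirradiated WT cells overlapped irradiated KO cells. On the log2(TPM + 1) scale, which understates changes at such low levels, SERPINB3 was higher in KO than in WT cells by 0.91 ± 0.17 without radiation (SE; limma adjusted p = 0.019) and by 0.71 ± 0.17 with it (adjusted p = 0.046). After irradiation it fell by 0.95 ± 0.17 in the WT (adjusted p = 0.013) and by 1.16 ± 0.17 in the KO background (adjusted p = 0.0049). Without the pseudocount, mean levels were 2.23-fold and 2.37-fold higher in KO cells and 2.97-fold (WT) and 2.79-fold (KO) lower after irradiation. The difference between the radiation effects was -0.21, with an interval of -0.73 to 0.31.

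The fall of SERPINB3 in irradiated KO cells passed the test in all 19 alternatives that could include the gene, and the other SERPINB3 calls were less firm. The call in unirradiated KO cells passed in 12 of 19 and was lost without WT replicate 2 or 3 or KO replicate 2 or 3 of the unirradiated groups (limma adjusted p from 0.073 to 0.092). The fall in WT cells passed in 15 of 19 and was lost without unirradiated WT replicate 1 or irradiated WT replicate 2 or 3 (adjusted p from 0.053 to 0.054). The difference in irradiated cells passed in 6 of 19 alternatives, and leaving out any of the 6 unirradiated libraries, irradiated WT replicate 2 or 3, or irradiated KO replicate 2 or 3 brought its adjusted p to between 0.060 and 0.15.

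SERPINB4 was listed at 1.64, 1.57 and 1.00 TPM in unirradiated WT and at 2.13, 1.46 and 2.08 TPM in unirradiated KO cells. After irradiation the values were 0.403, 0.577 and 0.126 TPM in WT and 1.45, 0.991 and 1.04 TPM in KO cells. The unirradiated groups overlapped, whereas every irradiated WT library was below all libraries of the other groups. SERPINB4 fell by 0.82 ± 0.17 on the log2(TPM + 1) scale with irradiation of WT cells (SE; limma adjusted p = 0.032), a call that passed in 12 of 19 alternatives and was lost without unirradiated WT replicate 1 or 2 or irradiated WT replicate 1 or 3 (adjusted p from 0.087 to 0.10). For KO cells the difference after irradiation was -0.42 (95% interval -0.80 to -0.03, adjusted p = 0.24). Between KO and WT cells it was 0.27 (-0.12 to 0.65, adjusted p = 0.54) without radiation and 0.67 (0.28 to 1.05, adjusted p = 0.068) with it.

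The summed level of SERPINB3 and SERPINB4, which does not depend on how reads were divided between them, was 4.01 ± 0.50 TPM in unirradiated WT, 7.70 ± 0.74 in unirradiated KO, 1.25 ± 0.44 in irradiated WT and 3.24 ± 0.35 in irradiated KO cells (SD, n = 3). On the log2(TPM + 1) scale the sum was higher in KO cells by 0.80 ± 0.15 without radiation (SE; limma adjusted p = 0.022) and by 0.93 ± 0.15 with it (adjusted p = 0.0065). The sum fell by 1.17 ± 0.15 when WT cells were irradiated (adjusted p = 0.0021) and by 1.04 ± 0.15 when KO cells were (adjusted p = 0.0047). Both falls passed in all 19 alternatives, and the difference in irradiated cells passed in 18. The difference in unirradiated cells passed in 11, and was lost without unirradiated WT replicate 2 or 3 or any of the unirradiated KO replicates (adjusted p from 0.059 to 0.098). SERPINB3 made up 65.4% ± 5.43, 75.5% ± 4.65, 71.9% ± 13.9 and 63.3% ± 12.6 of the sum in the same order of groups, so in each group it was the larger share on average, with 1 irradiated KO library at 48.9%.

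**Figure D2:**
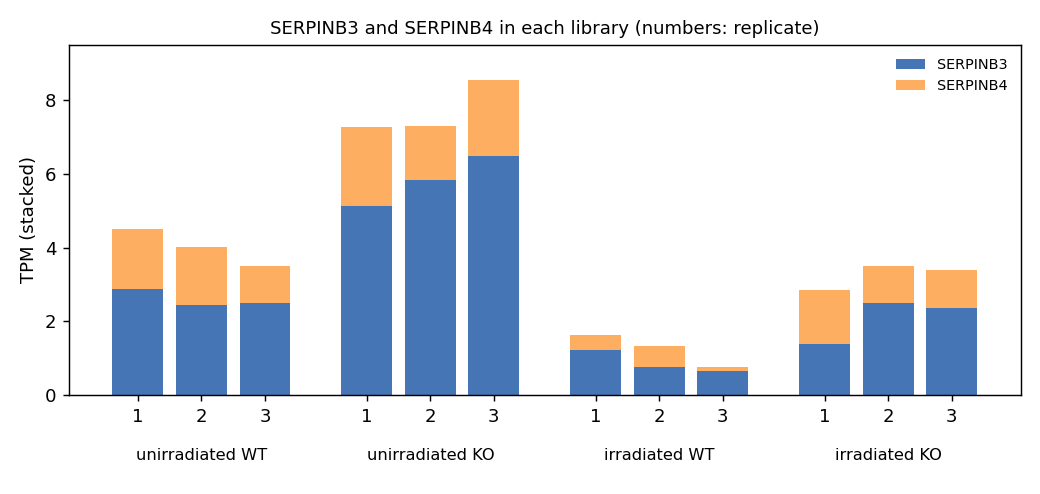
Stacked TPM of SERPINB3 (blue) and SERPINB4 (orange) in each of the 12 libraries, with the replicate number under each bar. The summed level was 7.26 to 8.55 TPM in unirradiated KO cells and 0.778 to 1.64 TPM in irradiated WT cells, and the other groups lay between.

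SERPINB9 is the inhibitor of granzyme B, through which cytotoxic lymphocytes kill their targets, and protects cells that carry it. It was at 41.0, 40.0 and 39.6 TPM in unirradiated WT, 35.2, 36.8 and 37.7 TPM in unirradiated KO, 42.1, 43.2 and 41.8 TPM in irradiated WT and 35.8, 37.6 and 36.4 TPM in irradiated KO cells. All 6 KO libraries were below all 6 WT libraries. SERPINB9 was lower by 0.21 ± 0.044 on the log2(TPM + 1) scale in irradiated KO than in irradiated WT cells (SE; limma adjusted p = 0.032), which is 1.16-fold between means. Without radiation the difference was -0.13 (95% interval -0.23 to -0.03, adjusted p = 0.20). The call in irradiated cells passed in 10 of 20 alternatives, and was lost without any 1 of the 6 irradiated libraries or without unirradiated KO replicate 2 (adjusted p from 0.052 to 0.11). Irradiation differences of SERPINB9 were 0.07 in WT cells (-0.03 to 0.17) and -0.00024 in KO cells (-0.10 to 0.10).

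SERPINB1 and SERPINB6 inhibit proteases of leukocyte granules, the former neutrophil elastase, cathepsin G and proteinase 3 and the latter cathepsin G. SERPINB1 ranged from 121 to 141 TPM over the 12 libraries. Its differences were -0.06 (95% interval -0.16 to 0.04) and -0.02 (-0.11 to 0.08) for KO against WT cells without and with radiation, and 0.07 (-0.03 to 0.17) and 0.11 (0.02 to 0.21, limma adjusted p = 0.21) for irradiation of WT and KO cells. In KO cells the irradiated SERPINB1 libraries were all above the unirradiated ones. SERPINB6 ranged from 90.3 to 109.5 TPM in 11 libraries, and irradiated WT replicate 2 was at 70.9 TPM. With this library its differences lay between -0.07 and 0.08, with intervals within -0.37 and 0.38.

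SERPINB8, an inhibitor of the proprotein convertase furin, ranged from 3.46 to 10.5 TPM. It spread most within irradiated WT cells, where it was at 4.29, 6.96 and 10.5 TPM, and its groups overlapped in every comparison. Its intervals reached from -0.87 to 1.04 on the log2(TPM + 1) scale, the widest of the 9 members tested. A piece of the SERPINB8 transcript (8.08% of its 100-base stretches) is shared with the overlapping gene HMSD. SERPINB5 (maspin), which does not inhibit proteases and is known as a tumour suppressor of epithelial cells, was at 41.3 to 49.2 TPM, and its 4 intervals lay within -0.17 and 0.24.

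SERPINB7 (megsin) is known from the upper epidermis, where its loss causes a palmoplantar keratoderma. It was at 0.868, 1.55 and 0.593 TPM in unirradiated WT, 1.12, 1.68 and 1.73 TPM in unirradiated KO, 1.53, 1.67 and 1.46 TPM in irradiated WT and 2.72, 2.62 and 2.58 TPM in irradiated KO cells. The irradiated KO libraries were above all 9 others. The differences did not pass the test, at 0.51 (0.14 to 0.88, limma adjusted p = 0.14) for KO against WT cells after radiation and 0.54 (0.17 to 0.91, adjusted p = 0.11) for irradiation of KO cells. In unirradiated cells the KO difference was 0.34 (-0.03 to 0.71), and that for irradiation of WT cells was 0.38 (0.01 to 0.75).

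SERPINB2 (plasminogen activator inhibitor 2) inhibits urokinase and tissue plasminogen activator. It was listed at 0, 0 and 0.244 TPM in unirradiated WT, 0.316, 0.271 and 0.199 TPM in unirradiated KO, 0.461, 0.392 and 0.473 TPM in irradiated WT and 0.484, 1.10 and 0.982 TPM in irradiated KO cells. In both WT and KO cells every irradiated library was above every unirradiated one. It reached 1 TPM in 1 library and so was not among the genes tested, for which a TPM of at least 1 in 3 libraries was required. In a fit without this filter, over 32518 genes, the difference after irradiation was 0.42 in WT cells (limma adjusted p = 0.19) and 0.54 in KO cells (adjusted p = 0.092), and neither KO difference passed. Of its 100-base stretches, 21.9% also occur in SERPINB10, which was listed at 0 throughout.

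Across the group, 9 of the 10 genes could be tested. For KO against WT in unirradiated cells 2 of 9 rose and none fell, beside 1.73% of all genes tested that passed (0.463% higher, 1.26% lower). In irradiated cells 2 rose and 1 fell, beside 3.59% (0.927% higher, 2.66% lower). Irradiation of WT cells lowered 3 and raised none, beside 3.74% (2.24% higher, 1.5% lower). Irradiation of KO cells lowered 2 and raised none, beside 3.69% (2% higher, 1.7% lower). The libraries of the 2 groups compared did not overlap for 3, 5, 4 and 5 members in the same order, against 20.6%, 24.1%, 24.8% and 24.3% of all genes tested. The median difference over the 9 members was 0.10, 0.08, 0.04 and -0.00024, beside -0.02, -0.02, 0.02 and 0.02 over all genes. The comparisons share groups, so a gene called in several of them is not seen independently in each.

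**Figure D3:**
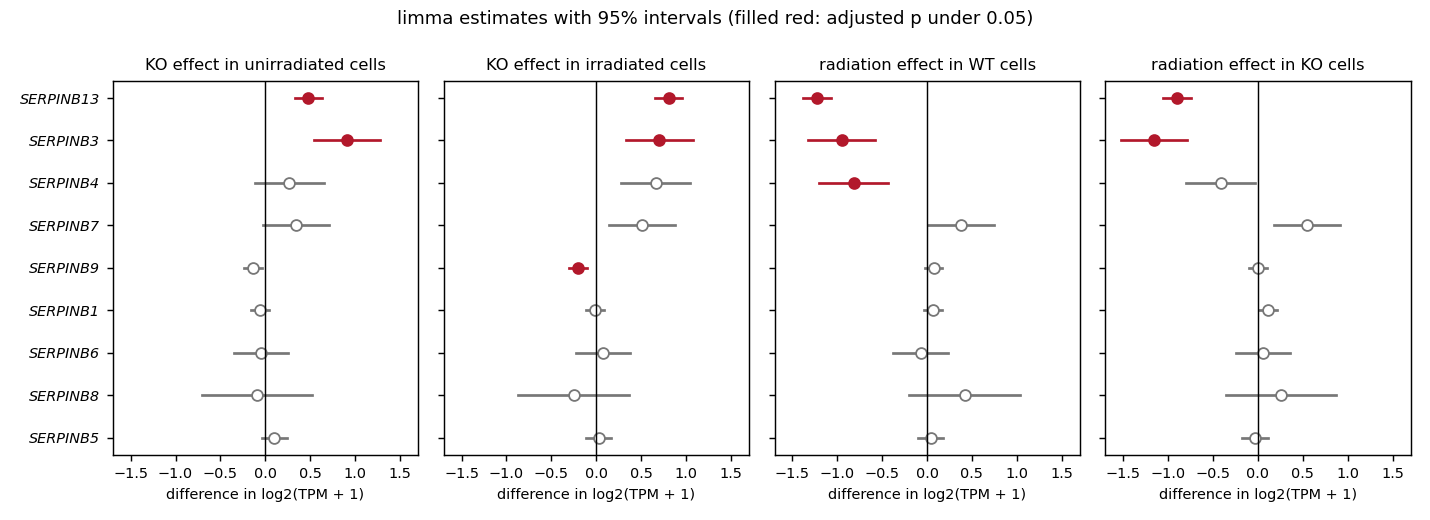
Differences in log2(TPM + 1) with 95% intervals for the 9 members tested, in the 4 comparisons between groups; filled red points passed the test (limma, adjusted p under 0.05) and open grey points did not. SERPINB13 and SERPINB3 lie to the right of 0 in both KO panels and to the left in both radiation panels, and SERPINB8 has the widest intervals.

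The 10 genes lie in 2 clusters. On chromosome 6, SERPINB1, SERPINB9 and SERPINB6 span 140 kb (chr6:2832332-2972165, GRCh38, positions from GENCODE 29). On chromosome 18, the other 7 span 543 kb (chr18:63476761-64019779), in the order SERPINB5, SERPINB13, SERPINB4, SERPINB3, SERPINB7, SERPINB2 and SERPINB8. SERPINB13 (chr18:63586989-63604639, plus strand), SERPINB4 (chr18:63637259-63644298, minus strand) and SERPINB3 (chr18:63655197-63661963, minus strand) are neighbours among the 10 members. SERPINB11, which spans SERPINB3, was listed at 0, and whether other expressed genes lie between these members was not examined. All members that fell with irradiation came from this trio, while SERPINB5 on one side and SERPINB7 on the other had no call. Of the 20 genes that flank the clusters, 15 were tested. None of these changed with KO in unirradiated cells, FOXC1 rose in irradiated KO cells (0.41, limma adjusted p = 0.014), and SLC22A23 fell with irradiation in WT (-0.29, adjusted p = 0.035) and KO cells (-0.28, adjusted p = 0.041). Both lie on the chromosome 6 side, so no tested flanking gene of the chromosome 18 cluster was called in these comparisons. Few genes stand behind this, since CDH7, CDH19 and DSEL on that side were at 0. Of all genes tested, 1.73% to 3.74% passed in these comparisons, so the absence of a call among a few genes is near that share.

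**Figure D4:**
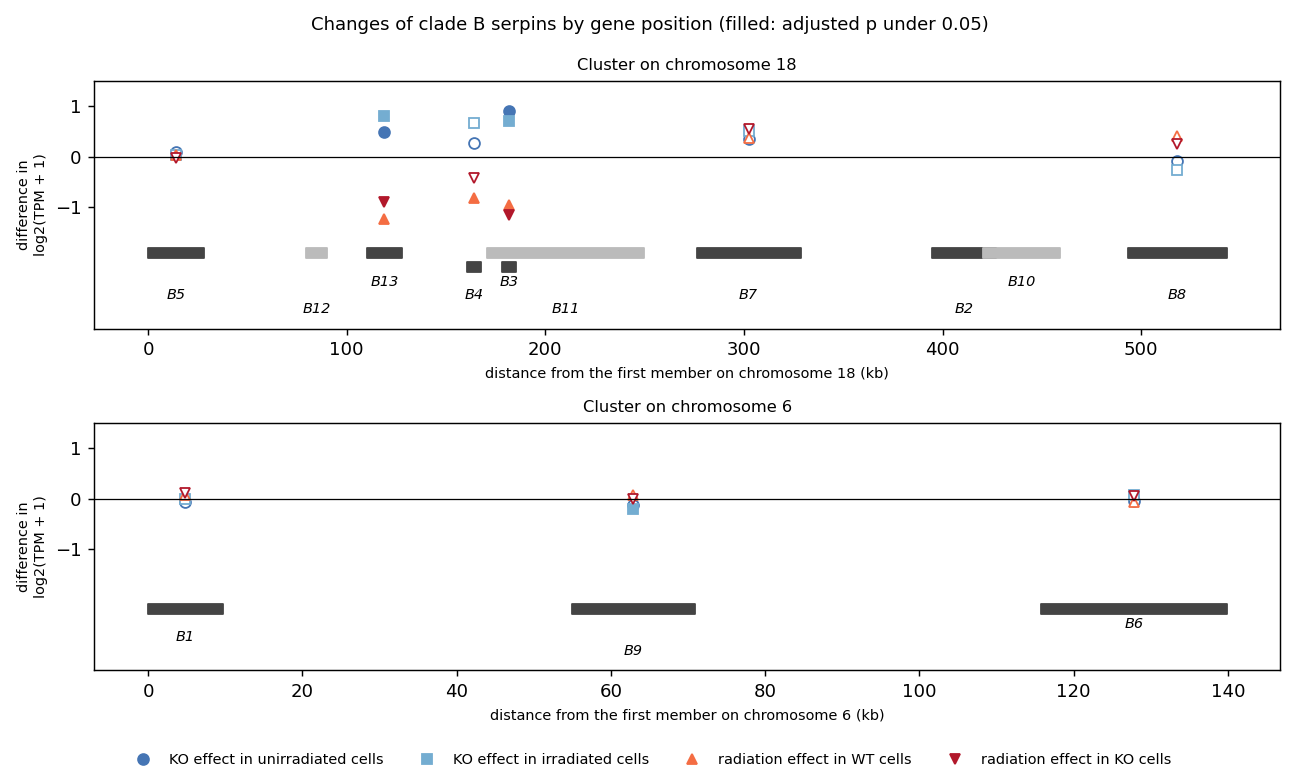
Differences in log2(TPM + 1) plotted at the middle of each gene against distance in kb from the first member of its cluster; filled symbols passed the test, dark bars are the 10 members, light bars are SERPINB10, SERPINB11 and SERPINB12, and bars set lower are on the minus strand. The filled symbols on chromosome 18 sit on SERPINB13, SERPINB4 and SERPINB3, which lie next to each other among the 10 members, and on chromosome 6 on SERPINB9.

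The bases before the RefSeq starts of the trio are shown because these neighbours moved together in their means. They were taken from RefSeq (GRCh38.p14), in which all 10 members had an entry, and cut to the part that no exon of the gene covers in GENCODE 29. SERPINB3 (chr18:63661964-63662143) and SERPINB4 (chr18:63644327-63644506) are on the minus strand, and capitals mark the 1 base of 180 that differs between them.
SERPINB3 upstream: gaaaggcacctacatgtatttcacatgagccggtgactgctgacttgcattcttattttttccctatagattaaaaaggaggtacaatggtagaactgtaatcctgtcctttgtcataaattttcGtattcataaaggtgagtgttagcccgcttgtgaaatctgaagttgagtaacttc
SERPINB4 upstream: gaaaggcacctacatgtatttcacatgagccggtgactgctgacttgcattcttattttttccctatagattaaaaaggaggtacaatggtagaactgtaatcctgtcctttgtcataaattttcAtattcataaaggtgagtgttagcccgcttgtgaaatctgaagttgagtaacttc

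Over the full 250 bases before the RefSeq start the pair differed at 3 positions (98.8% identity), more alike than in their coding sequences. Before its RefSeq start SERPINB13 has an unrelated sequence, with 44.7% of aligned positions identical to SERPINB3. The stretch below, on the plus strand at chr18:63587128-63587299, lies before the start that RefSeq gives. It is inside the span of SERPINB13 in GENCODE 29, which begins earlier, and so is not upstream of the whole gene. Capitals mark a match to the AP-1 motif.
SERPINB13 before the RefSeq start: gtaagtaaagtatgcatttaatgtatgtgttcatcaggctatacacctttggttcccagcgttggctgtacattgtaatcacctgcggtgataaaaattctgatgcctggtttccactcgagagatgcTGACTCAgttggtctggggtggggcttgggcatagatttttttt

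The letters searched on both strands were TGANTCA for AP-1, GAAA repeated after any 2 bases for the interferon-stimulated response element, TTCNNNGAA for the gamma-activated site and TGACNNNGC for the antioxidant response element, in windows from 250 bases before to 50 bases after each start. AP-1, a dimer of JUN and FOS proteins, matched 5 of the 10 members (SERPINB2, SERPINB5, SERPINB7, SERPINB8 and SERPINB13), in 6 of their 15 windows, beside 7.71% of 35116 windows of all genes. In SERPINB13 the match begins at position -87 from the RefSeq start. The interferon-stimulated element matched no member (3.57% of all windows). The gamma-activated site matched 3 members, in 3 of the 15 windows (7.66% of all windows), and the antioxidant element 2 members, in 2 of the 15 windows (13.3%). Neither SERPINB3 nor SERPINB4 held any of the 4 motifs in these windows. Whether AP-1 had a part in the differences was not tested. A match to letters is a description and not a binding site.

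For each member with a call, the genes whose pattern over the 12 libraries was most like it were found from the root mean square difference of log2(TPM + 1) after each gene's mean was subtracted. The nearest gene to SERPINB3 was ALDH3A1 (an aldehyde dehydrogenase of stratified epithelia), at 0.13, beside a standard deviation of SERPINB3 itself of 0.72. SERPINB13 was next at 0.25, followed by SLC47A2 at 0.26. The nearest to SERPINB13 were SLC47A2 (0.15), ALDH3A1 (0.15) and FGFR3 (0.21), beside its own 0.66. ALDH3A1 was at 125 TPM in unirradiated WT, 214 in unirradiated KO, 62.6 in irradiated WT and 109 TPM in irradiated KO cells on average. This is the order of groups of SERPINB13, which follows from choosing genes by their likeness and is not a separate result. SERPINB4 was nearest to WNT9A (0.17), AC005722.2 (0.18) and UNC5B (0.19), and SERPINB9, whose own value was 0.097, to PATL1 (0.033), ANKRD40 (0.035) and RNF43 (0.036). The log2(TPM + 1) scale shrinks changes at a few TPM more than at higher levels, so the genes nearest to SERPINB3 and SERPINB4 may depend on it. Between means, SERPINB3 fell 2.97-fold with irradiation of WT cells, whereas ALDH3A1 went from 125 to 62.6 TPM. Likeness was not computed with another pseudocount.

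**Figure D5:**
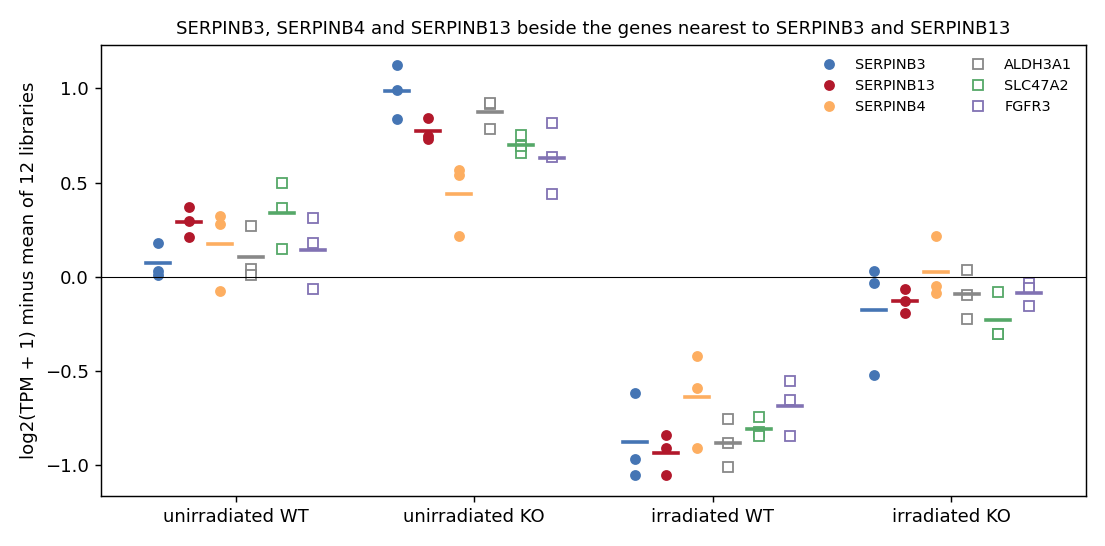
log2(TPM + 1) minus the mean of the 12 libraries for SERPINB3, SERPINB13 and SERPINB4 (filled circles) and for ALDH3A1, SLC47A2 and FGFR3 (open squares); each point is a library and each short bar a group mean. All 6 genes have their highest mean in unirradiated KO cells and their lowest in irradiated WT cells. ALDH3A1, SLC47A2 and FGFR3 were chosen for their likeness to SERPINB3 or SERPINB13 on this scale, so that they share this pattern follows from the choice.

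Proteases that clade B serpins are known to inhibit were measured beside them, with 16 of 31 listed genes tested. CTSL (cathepsin L), a target of SERPINB13 and SERPINB3, was lower in KO cells where these inhibitors were higher. It was at 158 ± 6.52 TPM in unirradiated WT and 126 ± 2.34 in unirradiated KO cells, and at 178 ± 10.9 and 135 ± 4.91 TPM after irradiation. CTSL fell by 0.33 (limma adjusted p = 0.011) and 0.40 (adjusted p = 0.0021) on the log2(TPM + 1) scale. CTSK, a further target of both inhibitors, lay the other way without radiation, at 1.36 to 2.14 TPM in WT and 2.51 to 2.75 TPM in KO cells. After irradiation its KO and WT libraries overlapped (1.36 to 1.95 TPM in WT and 1.80 to 2.35 TPM in KO cells). CTSK and CTSS, a further target of SERPINB3, were tested and not called in any comparison. Whether protease and inhibitor levels were linked was not tested. PLAU (urokinase), a target of SERPINB2, rose with irradiation by 0.49 in WT cells (adjusted p = 0.00038) and 0.40 in KO cells (adjusted p = 0.0012), and PLAT (tissue plasminogen activator) was higher in KO cells by 0.47 with and without radiation (adjusted p = 0.031 and 0.048). KLK8, a skin kallikrein, fell by 0.37 with irradiation of WT cells (adjusted p = 0.048). Of the 16 proteases, 1 rose and 1 fell in each KO comparison, beside 1.73% (unirradiated) and 3.59% (irradiated) of all genes tested that passed. With irradiation 1 rose and 1 fell in WT cells (3.74% of all genes), and 1 rose in KO cells (3.69%). GZMB, the granzyme B gene, and CTSG and CMA1, which encode cathepsin G and chymase, were listed at 0 in all 12 libraries. They are the targets named above for SERPINB9 and SERPINB4, and not every protease that these serpins may inhibit. ELANE, which encodes neutrophil elastase, a target of SERPINB1, was also at 0, while FURIN, the target of SERPINB8, was at 105 to 124 TPM.

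Among 22 serpins of other clades, most of them secreted, 8 were tested. SERPINA1 (alpha-1-antitrypsin) and SERPINI1 (neuroserpin) rose with irradiation of KO cells, by 0.92 (limma adjusted p = 0.0053) and 0.62 (adjusted p = 0.026). In this comparison 3.69% of all genes tested passed (2% higher).

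SERPINB3, SERPINB4 and SERPINB13 are known from the suprabasal layers of squamous epithelium, so keratinocyte genes were counted beside them. Of 25 suprabasal genes, 10 were tested. KRT4, a keratin of suprabasal mucosal cells, had the directions of SERPINB13. It rose in KO cells by 1.20 without (limma adjusted p = 0.00016) and 1.41 with radiation (adjusted p = 3.1e-05). With irradiation it fell by 1.42 in WT cells (adjusted p = 9.7e-05) and fell by 1.21 in KO cells (adjusted p = 0.00034). TGM1, which crosslinks the cornified envelope, also fell with irradiation, by 0.62 and 0.83 (adjusted p = 0.022 and 0.0054). SPRR1B, an envelope precursor, rose instead, by 0.82 and 0.95 (adjusted p = 0.014 and 0.0063). In each KO comparison 1 of the 10 rose and none fell, beside 1.73% (unirradiated) and 3.59% (irradiated) of all genes tested that passed. With or without a call, 7 of the 10 had higher values in unirradiated KO cells (median difference 0.42, beside -0.02 over all genes) and 9 of the 10 in irradiated KO cells (median 0.25, beside -0.02). In each radiation comparison 2 of the 10 fell and 1 rose, beside 3.74% (WT) and 3.69% (KO) of all genes tested that passed. Values were lower after irradiation for 7 of the 10 in WT cells (median -0.18, beside 0.02) and for 5 of the 10 in KO cells (median -0.02, beside 0.02). Of 13 basal genes, all tested, KRT17 fell in both KO comparisons, KRT14 rose in unirradiated and COL17A1 fell in irradiated KO cells, and none was called with irradiation. The same shares of all genes tested apply to these calls. Regardless of calls, 7 of the 13 were higher in unirradiated KO cells (median 0.03, beside -0.02 over all genes). In irradiated KO cells 8 of the 13 were higher (median 0.06, beside -0.02). After irradiation 8 of the 13 were lower in WT cells (median -0.06, beside 0.02). All 13 were lower after irradiation of KO cells (median -0.10, beside 0.02). Whether the share of suprabasal cells in the cultures had a part in the serpin differences was not tested.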

How the data were processed

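The study sequenced polyadenylated RNA of FaDu cells as 100 bp paired ends. The authors deposited 1 table of TPM for 58288 genes in 12 libraries, and the submitters' processing notes name HISAT2, StringTie, DESeq2 and hg38 with no roles or versions. The annotation and the strand setting are not given in the sources used here. The deposited TPM sum to 1000000 per library and keep no depth, so errors come from the spread of 3 libraries and not from read numbers. Columns were matched to samples by treatment and replicate number in their names. NT2 is the non-targeting gRNA of the study's methods, and A63 was taken as STING KO, with TMEM173 as the check.

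From the TPM, log2(TPM + 1) was computed and a gene was kept (15973 genes) if 3 libraries reached 1 TPM. A model with 4 group means was fitted in limma 3.58.1 (R 4.3.3), with 5 contrasts, an eBayes variance trend and 8 residual degrees of freedom; p-values were Benjamini-Hochberg adjusted, at a threshold of 0.05. The authors' method, DESeq2, needs counts, which were not used here. The code was tested on simulated data. Alternatives changed the pseudocount (0.1), the filter (none, or a mean TPM of 5 or more), the scaling (median-of-ratios or quantile), the variance prior (no trend), the samples (a fit to 6 libraries, or 1 library left out) and the design (replicate block), and summed SERPINB3 with SERPINB4. Running the sum under the other alternatives was chosen after seeing the data.

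The members and lists were chosen with earlier results of these data known. Named genes are the 10 members, TMEM173, listed genes past the threshold (at most 6 per list) and the 3 genes of nearest profile to each member past it. Listed genes outside this rule (FURIN, CTSK, CTSS, and those at 0) were named after their values were seen. Positions, exons and coding sequences are from GENCODE 29 (GRCh38), to which 9 of 10 member identifiers matched with the version and SERPINB6 without it. Identities are from global alignments (Biopython 1.88). The hinge pattern first planned for the reactive centre loop was found in neither gene of the pair, so its second residue was allowed to vary. The loop was located in the translated coding sequences, and no residues are printed. The result of 1 further listed gene is not reported here.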

Additional observations from a re-analysis of the deposited data

How the results depend on the processing

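Counts of members past the threshold were small, so 1 gene moves them. For KO against WT in unirradiated cells the count of 2 became 1 with a pseudocount of 0.1, without the filter, with a mean TPM of at least 5 or with the replicate block, and was 1 to 2 with a library left out. In irradiated cells the count of 3 became 1 with the block or with only the 6 libraries compared, and 1 to 2 with a library left out. For irradiation of WT cells 3 became 1 with a mean TPM of at least 5, which removes SERPINB3, SERPINB4 and SERPINB7 from the test, and 1 with only 6 libraries, and was 1 to 3 with a library left out. For irradiation of KO cells 2 became 1 with that filter and was 2 to 3 with a library left out.

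Same-numbered libraries did not deviate together over all genes tested (correlations from -0.060 to 0.064). The labels give them only a shared number, and this check cannot show whether they shared a culture or day. With the replicate block the counts of members were 1 and 1 for the KO comparisons, 2 and 2 for the radiation comparisons and 0 for their difference. The cause of the lost calls was not tested.

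Of 45 member values, 33 kept their direction under every alternative, and none of the 12 that turned was past the threshold. With median-of-ratios factors SERPINB1 in irradiated KO against WT cells became 0.0048, and with a pseudocount of 0.1 the difference between radiation effects of SERPINB3 became 0.035. With 1 library left out, values for irradiated KO against WT cells ran from -0.034 to 0.012 (SERPINB1), -0.0016 to 0.044 (SERPINB5), -0.12 to 0.19 (SERPINB6) and -0.54 to 0.024 (SERPINB8), and without radiation from -0.29 to 0.076 (SERPINB8). For irradiation they ran from -0.0010 to 0.087 (SERPINB5) and -0.18 to 0.13 (SERPINB6) in WT cells and from -0.026 to 0.021 (SERPINB9) in KO cells. For the difference between radiation effects they ran from -0.074 to 0.24 (SERPINB6), -0.021 to 0.32 (SERPINB7) and -0.45 to 0.12 (SERPINB8). SERPINB6 turned only without irradiated WT replicate 2. The number of reads behind a TPM is unknown, which limits statements on SERPINB2, SERPINB3, SERPINB4 and SERPINB7, all at a few TPM or less.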
